A study of Homo sapiens with 3 samples.

Results

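YAP/TEAD target genes were examined for binding of RBPJ (also called CBF1 or CSL), through which Notch signals reach DNA, and of L3MBTL3, a methyl-lysine reader that the series' title names as a repressor of Notch signaling together with RBPJ and the demethylase KDM1A. The 10 genes were CCN1, CCN2, AXL, F3, CRIM1, FJX1, AJUBA, PTPN14, WWC2 and TEAD1, of 19748 protein-coding genes in all. They were selected on having RBPJ peaks in the same list that is described here, so the presence, number and fold of RBPJ peaks at them are a description and carry no test. Every peak with its summit within 50 kb of a protein-coding transcription start site (TSS) of one of these genes was taken: 17 of 2926 RBPJ peaks and 0 of 444 L3MBTL3 peaks. CCN2, although on the list, had no RBPJ peak in reach, which left 9 genes with peaks.

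ChIP-seq, the sequencing of DNA precipitated with an antibody to a chromatin protein, was run on MDA-MB-231, an established human breast cancer cell line grown in RPMI1640 with serum. There was 1 library for the RBPJ antibody RBPSUH(D10A4), 1 for an anti-L3MBTL3 antibody and 1 of input DNA, which was not analysed here. The labels give no treatment or engineered allele for any of the 3 libraries, and all share the cell line and growth medium. Sequencing depth is labelled as 30 to 40 M aligned reads per library, and the reads behind a single peak are unknown. With 1 library per antibody there was no replicate error and no test between conditions. Wilson intervals below are 95% intervals over peaks and cover counting error only, and peaks of 1 gene share their source. A peak list does not measure expression, so the labelled cell line could not be checked against marker genes, and whether these genes were expressed was not measured.

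YAP and its paralog TAZ are coactivators that do not bind DNA themselves. When the Hippo kinases (STK3 and STK4, then LATS1 and LATS2) are active, YAP is phosphorylated and held out of the nucleus; when they are not, it enters and binds the TEAD proteins, which recognise GGAATG in DNA. In cancer cells TEAD often sits at enhancers together with AP-1, the dimer of FOS and JUN proteins, which recognises TGACTCA and its reverse complement TGAGTCA. RBPJ recognises CGTGGGAA or TGTGGGAA with high affinity. TGGGAA, the core of that sequence, is shorter and occurs more often.

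The stretches of hg19 below show the words found within 100 bp of the RBPJ summits, in the direction of the gene, with each word in capitals; CATTCC is the TEAD word on the opposite strand. The first set is shown because a TEAD word lay within 100 bp of these summits, in several cases outside the called peak. The PTPN14 window also held 2 TEAD words and is not shown. The WWC2 promoter and TEAD1 promoter stretches hold 2 TEAD words side by side on the same strand, and the TEAD1 stretch crosses the start of transcription.
CCN1 promoter, chr1:86046319-86046354, plus strand: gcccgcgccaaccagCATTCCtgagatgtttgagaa
CCN1 downstream, chr1:86072939-86072974, plus strand: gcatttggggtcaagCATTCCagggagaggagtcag
AJUBA downstream, chr14:23443925-23443960, minus strand: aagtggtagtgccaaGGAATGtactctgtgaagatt
WWC2 upstream, chr4:184020074-184020109, plus strand: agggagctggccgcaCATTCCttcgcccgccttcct
WWC2 promoter, chr4:184020173-184020222, plus strand: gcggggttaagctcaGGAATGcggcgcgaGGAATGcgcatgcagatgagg
TEAD1 promoter, chr11:12695955-12695972, plus strand: CATTCCtgtcctCATTCC

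The second set is shown because it holds AP-1 words. In AXL the window holds both an AP-1 and a TEAD word at 2 of 3 summits. At the promoter summit 10 bases lie between them, and at the distal summit 52 and 108. In F3 and at the upstream AJUBA summit the AP-1 word stands alone. The stretch named AXL promoter lies near a later TSS inside the gene. It is intronic, with its summit 6.99 kb downstream of the gene's 5′ end. The AXL middle summit is also within 1 kb of that later TSS.
AXL distal, chr19:41729534-41729684, plus strand: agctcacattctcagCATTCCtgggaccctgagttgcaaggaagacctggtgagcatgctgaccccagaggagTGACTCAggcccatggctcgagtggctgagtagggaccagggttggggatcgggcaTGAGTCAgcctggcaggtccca
AXL middle, chr19:41731792-41731828, plus strand: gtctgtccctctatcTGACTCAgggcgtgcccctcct
AXL promoter, chr19:41732006-41732134, plus strand: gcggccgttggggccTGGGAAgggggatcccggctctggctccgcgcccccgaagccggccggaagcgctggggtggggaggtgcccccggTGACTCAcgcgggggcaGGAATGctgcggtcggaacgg
F3 promoter, chr1:95007504-95007540, minus strand: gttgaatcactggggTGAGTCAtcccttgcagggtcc
AJUBA upstream, chr14:23476271-23476307, minus strand: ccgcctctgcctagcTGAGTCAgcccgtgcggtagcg

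The third set holds the RBPJ core at the FJX1 start and, in the same window as a TEAD word, in the CRIM1 intron. The FJX1 stretch has 1 core on each strand.
FJX1 promoter, chr11:35639988-35640015, plus strand: TGGGAAgcggcggggactcgagTTCCCA
CRIM1 intron, chr2:36608295-36608382, plus strand: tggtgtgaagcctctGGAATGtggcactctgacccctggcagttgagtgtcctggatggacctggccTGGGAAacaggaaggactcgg

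RBPJ peaks sat at the promoters of 9 of the 10 genes, or of 8 if only the gene's 5′ end counts as its TSS, which leaves out AXL. A summit lay within 1 kb of a TSS of CCN1, AXL, F3, CRIM1, FJX1, AJUBA, PTPN14, WWC2 and TEAD1, against 8.91% of all protein-coding genes. A summit within 50 kb was present for the same 9 genes and for 21.8% of all genes. Of the 4303 genes with a summit within 50 kb, 40.9% had one within 1 kb. Since the genes were chosen for having such peaks, nothing is read from these counts. Of the 17 peaks, 12 were within 1 kb of a TSS and 5 were farther away. Over the whole RBPJ list 64.1% were within 1 kb. AJUBA had 4 peaks, AXL 3, CCN1, CRIM1 and WWC2 2 each, and F3, FJX1, PTPN14 and TEAD1 1 each. Having 3 or more summits within 50 kb, as AJUBA and AXL did, was the case for 2.95% of genes. The farthest peak inside the 50 kb limit was 26.5 kb from CCN1 (fold 3.995), and the closest outside it were 97.0 kb from AXL (5.81), 116 kb from CCN1 (4.92) and 129 kb from PTPN14 (5.52).

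**Figure D1:**
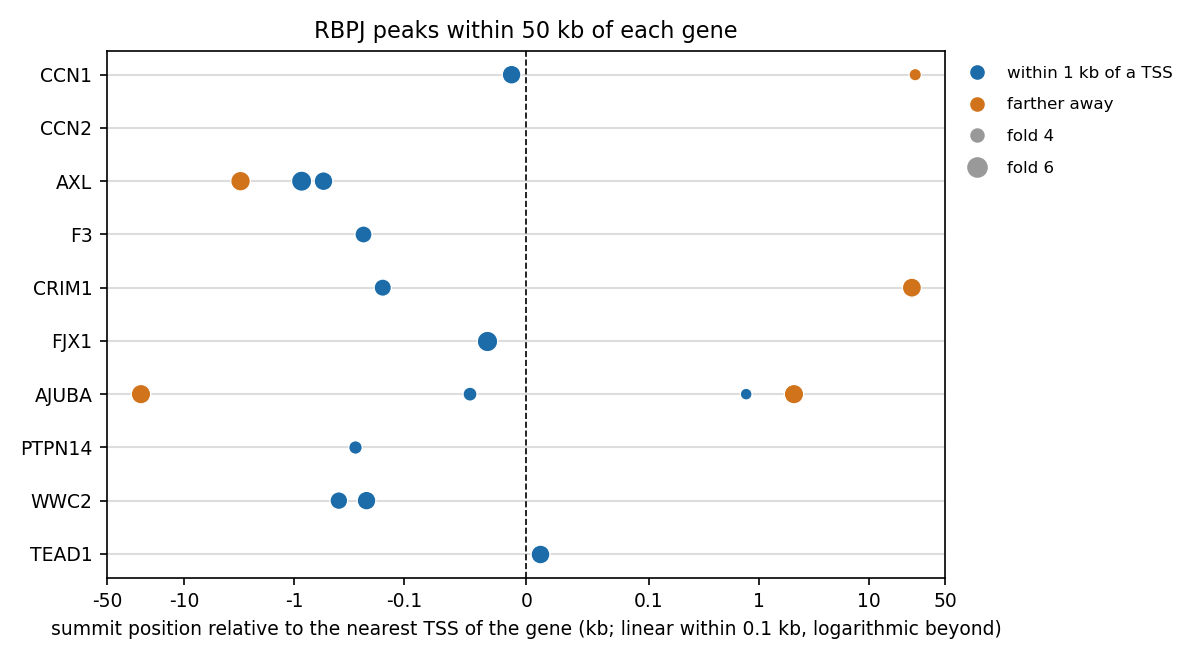
Position of each RBPJ summit relative to the nearest TSS of its gene (horizontal axis in kb, linear within 0.1 kb and logarithmic beyond, negative values upstream), with 1 row per gene and point area growing with the square of the fold. Blue points lie within 1 kb of a TSS and orange points farther away; 9 of 10 rows hold a blue point and the CCN2 row is empty.

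Fold enrichment is the deposited ratio of signal at the summit over the caller's local background. At these genes it was mostly above the median of the RBPJ list and well below the list's highest values. The median over the 17 peaks was 6.05 (quartiles 5.52 and 6.27, range 3.81 to 6.61), beside 5.08 over all RBPJ peaks (quartiles 4.53 and 5.78, range 2.09 to 21.3). Of the 17, 13 were above the median of the list and 10 above its upper quartile. The strongest, at FJX1, was higher than 90.9% of the list. The 12 promoter peaks had a median of 5.87 (5.08 over all promoter RBPJ peaks) and the 5 distal peaks 6.27 (5.14 over all distal ones). Folds took repeated values: the 2926 peaks had 955 distinct folds, and 79.4% of them shared both fold and q with another peak. CCN1's downstream peak was 1 of 53 with the same pair of values. No error of a fold can be had from 1 library, so small differences in fold between these peaks cannot be read as different binding.

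**Figure D2:**
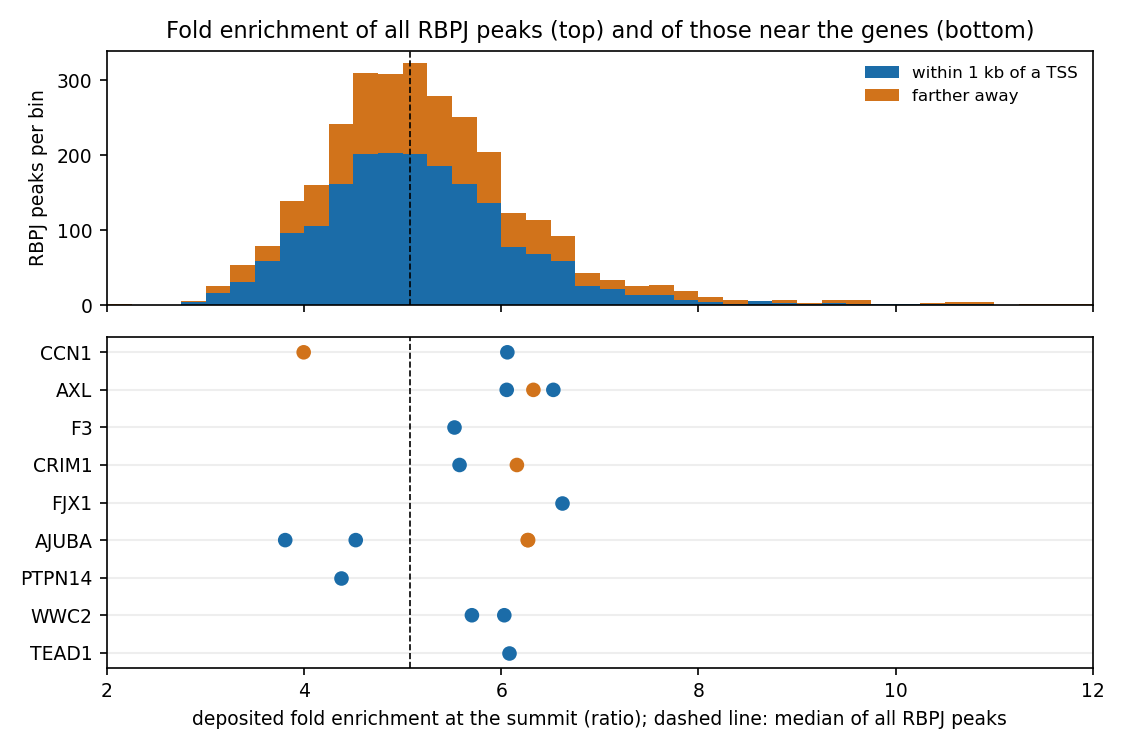
Deposited RBPJ fold enrichment (horizontal axis, a ratio) of all RBPJ peaks as a stacked histogram (top, peaks per bin, 6 peaks above a fold of 12 not drawn) and of each peak near the 9 genes (bottom, 1 point per peak). The dashed line is the median of all RBPJ peaks, 5.08; 13 of the 17 points lie to its right, and the pair of distal AJUBA peaks at 6.27 overlap.

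CCN1 and CCN2 encode secreted matricellular proteins of the CCN family and are the most widely used readouts of YAP activity. At CCN1 the promoter peak (chr1:86046409-86046483) had its summit 12 bp upstream of the TSS with a fold of 6.06 and a -log10 q of 5.06. Its TEAD word began 110 bp upstream of the TSS, at the edge of the window, 95.5 bp from the summit. A second, weaker peak lay between genes 26.5 kb downstream (chr1:86072966-86073076, fold 3.995, -log10 q 2.03), with a TEAD word 29.5 bp from its summit.

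CCN2 had neither an RBPJ nor an L3MBTL3 peak in reach, and the nearest of both lay 6.20 Mb away at HEY2, a Notch-induced repressor gene, with folds of 8.86 for RBPJ and 11.7 for L3MBTL3. The region around CCN2 on chromosome 6 held few peaks of any kind. Within 10 Mb of its 5′ end there was 1 RBPJ summit among 87 protein-coding genes, where the other 9 genes had 6 to 80 RBPJ summits in the same span and the median gene had 20 (quartiles 8 and 37). Of all genes, 5.28% had 1 or none. The part of this low local density in the lack of a CCN2 peak was not tested. It could not be told from the files used here whether the lists are complete in this region, so the lack of a CCN2 peak and the 6.20 Mb distance hold only for the lists as used. The CCN2 promoter carried 3 TEAD words, 169, 104 and 95 bp upstream of the TSS. All were on the strand of the gene, and the last pair started 9 bp apart. TEAD words without a peak were common. Of 394 genes with 3 or more in the 1 kb upstream, 6.60% had an RBPJ summit within 1 kb of the 5′ end. The CCN2 words are shown in the direction of the gene because they are present without a listed RBPJ peak.
CCN2 promoter, chr6:132272587-132272696, minus strand: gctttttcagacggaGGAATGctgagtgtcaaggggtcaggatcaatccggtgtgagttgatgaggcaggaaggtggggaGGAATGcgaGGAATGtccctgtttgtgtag

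AXL encodes a receptor tyrosine kinase for GAS6 that is linked to invasion and drug resistance, and F3 encodes tissue factor, the membrane receptor that starts blood coagulation. AXL held 3 RBPJ peaks in intronic sequence, at 4.47, 6.68 and 6.99 kb downstream of the gene's 5′ end, which is 3059, 852 and 539 bp upstream of a later TSS inside the gene. Their folds were 6.33 (chr19:41729555-41729695), 6.53 (chr19:41731699-41731885) and 6.05 (chr19:41732016-41732303). The last had the highest -log10 q of the 17 peaks, 8.05. The window of each held at least 1 AP-1 word, and the windows at 3059 and 539 bp also held a TEAD word. At the 539 bp peak the AP-1 and TEAD words were on 1 strand with 10 bases between them, and the TEAD word lay 4.5 bp from the summit. The middle peak had its AP-1 word 2 bp from the summit. The 2 peaks nearest the later TSS had summits 313 bp apart. Counting only the gene's 5′ end as its TSS, AXL had no promoter peak and 8 of 10 genes had one.

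At F3 the single peak (chr1:95007539-95007594, 56 bp wide) lay 235 bp upstream of the TSS, in an exon of an lncRNA gene, with a fold of 5.52 and a -log10 q of 4.27. Its window held 1 AP-1 word 28 bp from the summit, outside the called peak, and no TEAD word. The gene's own TEAD word in the first 1 kb upstream lay 662 bp from the TSS, and a high-affinity RBPJ word lay 846 bp from it, both outside the peak's window.

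CRIM1 encodes a transmembrane protein that binds BMP growth factors, and FJX1 encodes the human counterpart of four-jointed, a secreted regulator of the Fat and Dachsous cadherins of the Hippo pathway in flies. The CRIM1 promoter peak (chr2:36582723-36582806), 156 bp upstream of the TSS, had a fold of 5.58 and none of the words searched. The intronic one (chr2:36608199-36608461), 24.8 kb downstream of the nearest TSS, had a fold of 6.16, a TEAD word 64.5 bp and an RBPJ core 12.5 bp from the summit. FJX1 had 1 peak 32 bp upstream of its TSS (chr11:35639882-35640072) with the highest fold of the 17, 6.61. Its window held 2 RBPJ cores, 14.5 and 36.5 bp from the summit, and no TEAD or AP-1 word. FJX1 did carry 3 TEAD words farther upstream, the closest 510 bp from the TSS.

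AJUBA, PTPN14 and WWC2 encode regulators inside the Hippo pathway. AJUBA is a LIM-domain scaffold that inhibits LATS kinases, PTPN14 a phosphatase that binds YAP and keeps it out of the nucleus, and WWC2 a relative of KIBRA that activates LATS kinases. AJUBA had the most peaks. Those at its 5′ end were weak: fold 4.52 (-log10 q 2.35) 46 bp upstream of the TSS (chr14:23451723-23451824), and 3.81 (2.03) 772 bp downstream of a second TSS (chr14:23449902-23450044). Neither held any of the words. The stronger ones were the 2 distal peaks. The one 2.10 kb downstream of the nearest TSS, inside AJUBA (chr14:23443874-23443939), had a fold of 6.27 and a TEAD word 28.5 bp from the summit. The one 24.6 kb upstream (chr14:23476304-23476373) had a fold of 6.27, and its window held an AP-1 word outside the called peak. This peak lies in an intron of C14orf93, 2996 bp from a TSS of that gene, and is the only 1 of the 17 peaks whose nearest protein-coding TSS belongs to another gene.

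PTPN14 had 1 peak, with a fold of 4.38 and a -log10 q of 2.48 (chr1:214725209-214725304). Its summit was 279 bp upstream of a TSS and 568 bp inside the annotated 5′ end of the gene. The window held 2 TEAD words, 45.5 and 81.5 bp from the summit, with 121 bases between them. WWC2 had 2 promoter peaks whose summits were 172 bp apart. The peak at 391 bp upstream (chr4:184019994-184020080) had a fold of 5.70 and a TEAD word 72.5 bp away. The peak at 219 bp upstream (chr4:184020169-184020223) had a fold of 6.03, and its summit fell on a TEAD word (0.5 bp from the word's centre) with a second one 14 bp farther. Both lie in an exon of WWC2-AS2, a non-coding gene on the opposite strand.

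TEAD1 encodes the DNA-binding partner of YAP itself. Its single peak (chr11:12695889-12696022) had a summit 11 bp downstream of the TSS, in the UTR, with a fold of 6.08 and a -log10 q of 5.94. Both TEAD words in the window were on the strand opposite to the gene and started 12 bp apart, centred 9.5 and 21.5 bp from the summit. The word nearer the summit spans the TSS. The TEAD1 promoter therefore holds the recognition sequence of the protein it encodes, under an RBPJ peak.

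The TEAD word was the most frequent of the words at these summits. It lay within 100 bp of 10 of 17 summits (58.8%, 36.01 to 78.39), beside 13.7% of all 2926 RBPJ peaks and 2 of 34 windows (5.88%) centred 2 kb to either side of the same summits. At promoters it was in 6 of 12 windows (50.0%, 25.4 to 74.6), beside 7.46% of all promoter RBPJ peaks and 7.87% of windows centred on all TSS. Away from promoters it was in 4 of 5, beside 24.9% of distal RBPJ peaks. By gene, 7 of the 9 genes with peaks had a TEAD word at a summit (all but F3 and FJX1), beside 16.2% of the 4303 genes with a summit within 50 kb. Windows with 2 or more TEAD words were 3 of 17 (PTPN14, WWC2 and TEAD1) beside 1.64% of all RBPJ peaks. None of the 13 TEAD words overlapped an RBPJ core, beside 63 of the 455 over all RBPJ peaks. Of the 13, 9 were centred within 50 bp of the summit, beside 58.2% of the 455. With only 13 words, each of these counts is near the share over all RBPJ peaks and is not a result about these words. The windows were GC-rich, with a median GC content of 71.1% (68.7% over all RBPJ peaks). The window can reach past the called peak. At each CCN1 peak, the distal AXL, the downstream AJUBA and the upstream WWC2 peak, the TEAD word lay in the window but outside the called peak. So did the PTPN14 word farther from the summit. These genes were put together as YAP/TEAD targets, so the share is not independent evidence of TEAD words near RBPJ summits, and no test was made.

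**Figure D3:**
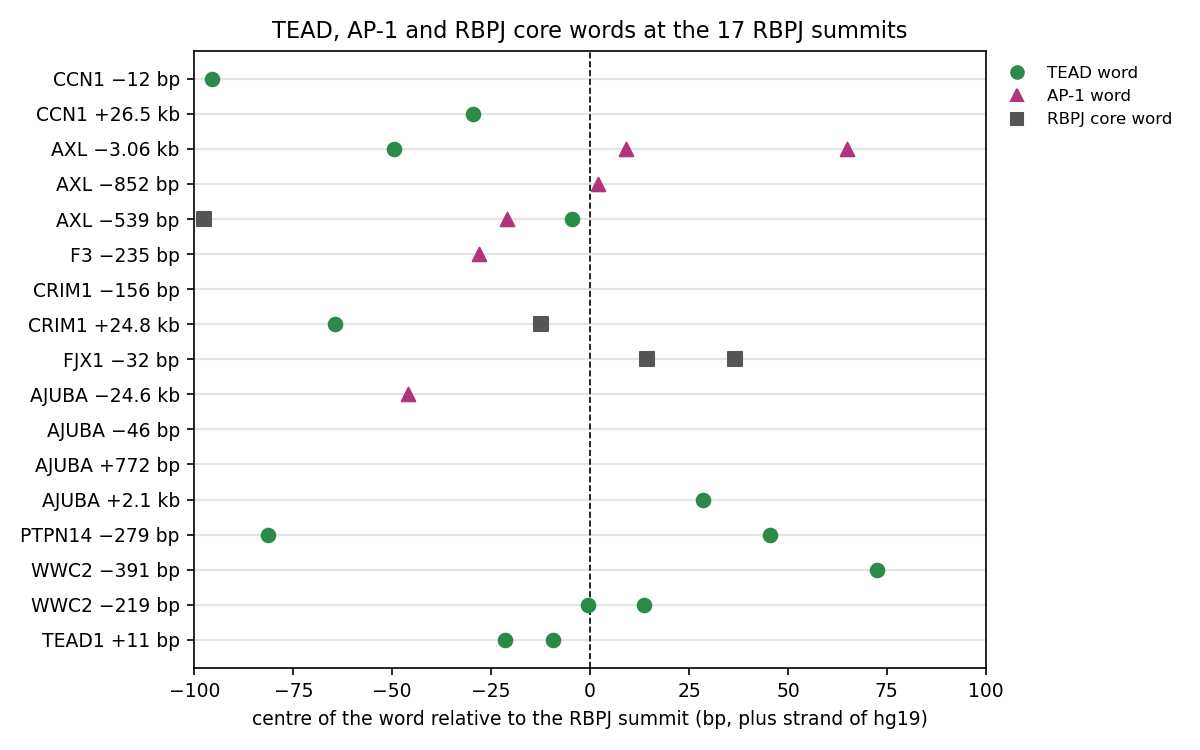
Centres of TEAD (circles), AP-1 (triangles) and RBPJ core (squares) words relative to the RBPJ summit (horizontal axis in bp on the plus strand of hg19, 0 is the summit), 1 row per peak, named by gene and by distance from its TSS in the direction of the gene. Of 17 rows, 10 hold a TEAD word, 5 an AP-1 word, 3 an RBPJ core and 3 none, and no row holds a high-affinity RBPJ word.

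AP-1 words were in 5 of 17 windows (29.4%, 13.3 to 53.1), beside 11.2% of all RBPJ peaks, and 3 of the 5 belonged to AXL. Without AXL the count was 2 of 14 (14.3%), so the share rests on that gene. At promoters 3 of 12 windows held it (3.78% of all promoter RBPJ peaks) and away from them 2 of 5 (24.5% of all distal ones). Those promoter windows were that of F3 and those of the intronic AXL peaks near its later TSS, so the promoter share also rests on AXL. The F3 and AJUBA words lay in the window but outside the called peak. By gene it was 3 of 9, AXL, F3 and AJUBA, beside 13.9% of genes with a summit within 50 kb. AJUBA counts here only through its upstream peak, whose nearest protein-coding TSS is that of C14orf93. Both a TEAD and an AP-1 word stood in 2 windows, both of AXL, beside 2.46% of all RBPJ peaks. A TEAD or an AP-1 word was in 13 of 17 windows and in 22.5% of those of all RBPJ peaks. By gene, 8 of 9 had one or the other, the exception being FJX1.

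RBPJ's own high-affinity word was in none of the 17 windows (Wilson upper limit 18.4%), beside 8.51% of all RBPJ peaks. Beside a share that low, 0 of 17 is near the background and is not a result about these peaks. The core TGGGAA was in 3 of 17 (17.6%, 6.19 to 41.0), at AXL, CRIM1 and FJX1, beside 29.5% of all RBPJ peaks and 7 of 34 flanking windows (20.6%). The absence of these letters from a window says only that they are not in that window.

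**Figure D4:**
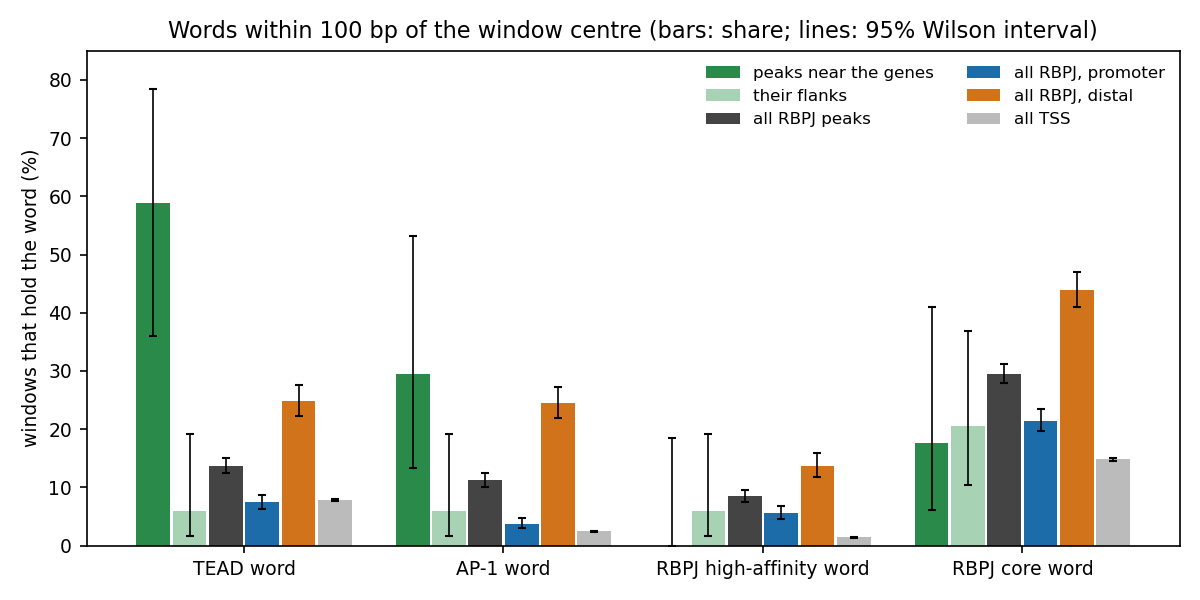
Percent of windows, reaching 100 bp to either side of their centre, that hold each word (vertical axis; lines are 95% Wilson intervals) for the 17 peaks, their 34 flanking windows, all RBPJ peaks, those at promoters and away from them, and windows centred on all TSS. The TEAD bar of the 17 peaks stands at 58.8%, with an interval of 36.01 to 78.39, and the high-affinity RBPJ bar is at 0.

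No L3MBTL3 peak was listed at these genes. None of the 10 genes had an L3MBTL3 summit within 50 kb, and none of the 17 RBPJ peaks overlapped an L3MBTL3 peak or came within 1 kb of one. Over all genes 2.89% had an L3MBTL3 summit within 50 kb, over genes with an RBPJ summit in that span 8.09% did, and of all RBPJ peaks 4.37% overlapped an L3MBTL3 peak. Against these shares 0 of 10 and 0 of 17 are near the background and are not a result about these genes. The nearest L3MBTL3 summit was 0.515 Mb from WWC2 (fold 7.13, closest to STOX2) and 1.56 Mb from CRIM1 (5.46, CYP1B1). It was 3.04 Mb from PTPN14, 4.21 Mb from AXL, 4.24 Mb from CCN1, 4.72 Mb from F3, 6.20 Mb from CCN2, 10.5 Mb from FJX1, 11.004 Mb from TEAD1 and 27.8 Mb from AJUBA. The median of these, 4.48 Mb, lay beside 3.79 Mb over all protein-coding genes and 2.27 Mb over genes with an RBPJ summit within 50 kb. The L3MBTL3 list is the shorter one, and a missing peak does not show that L3MBTL3 was absent from the DNA.

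**Figure D5:**
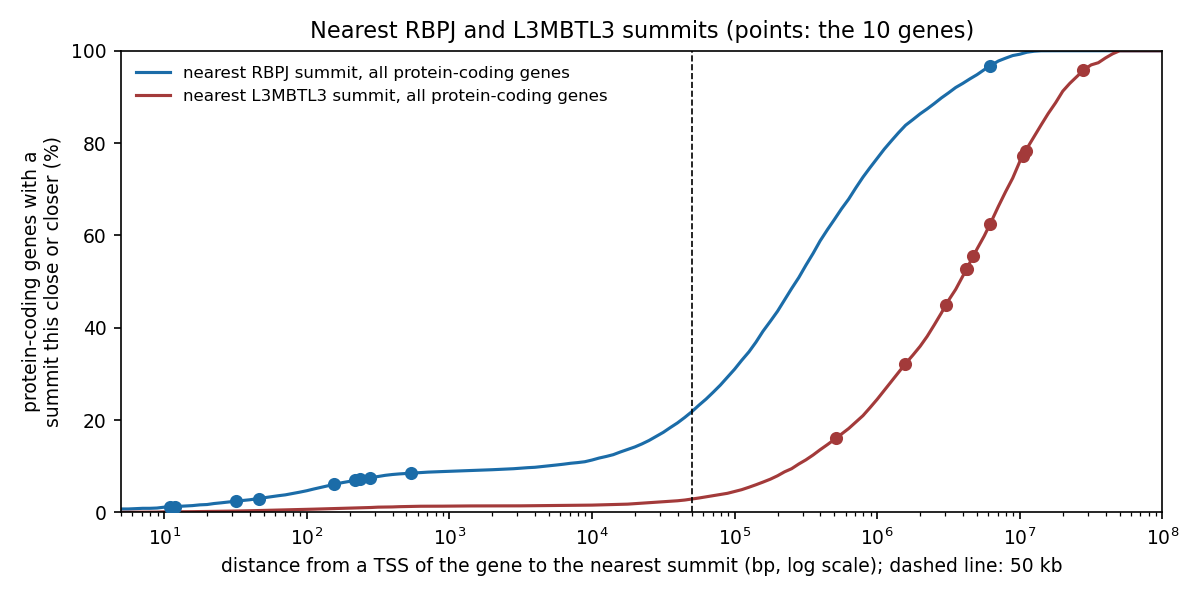
Percent of protein-coding genes (vertical axis) whose nearest RBPJ (blue) or L3MBTL3 (red) summit lies within a given distance of a TSS (horizontal axis in bp, log scale), with the 10 genes as points on the curves. Of the blue points 9 lie below 1 kb and CCN2 at 6.20 Mb; the red points lie between 0.515 and 27.8 Mb, right of the dashed line at 50 kb.

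Other genes of the pathway were covered by 2 lists, a published signature of 22 YAP/TAZ targets (7 of them members here) and 39 Hippo pathway and YAP/TEAD complex genes (4 of them members). Among the 15 other signature genes, 1 had an RBPJ summit within 1 kb of a TSS (8.91% of all genes), 1 within 10 kb (11.3%) and 5 within 50 kb (21.8%). The promoter peak was that of ARHGEF17 (14 bp from the TSS, fold 4.88). MYOF, AMOTL2, ASAP1 and NUAK2 had summits 16.3 to 44.9 kb away, and those nearest MYOF (fold 6.45) and NUAK2 (6.06) held a TEAD word. ANKRD1, LATS2, IGFBP3 and the remaining signature genes had no RBPJ summit within 50 kb. DOCK5, a Rac exchange factor, was the 1 signature gene with an L3MBTL3 promoter peak (193 bp, fold 5.42), where 1.37% of genes had one within 1 kb and 1.58% within 10 kb.

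Among the 35 other Hippo pathway genes, 7 had an RBPJ summit within 1 kb (8.91% of all genes), 9 within 10 kb (11.3%) and 15 within 50 kb (21.8%). The 7 were YAP1 (196 bp, fold 5.94, with 1 TEAD word), FAT1, an atypical cadherin (286 bp, 5.87, with a high-affinity RBPJ word), WWC3 (372 bp, 5.78), SAV1, the scaffold of the upstream kinases (313 bp, 5.18), STK4, one of those kinases (177 bp, 4.86), FRMD6 (194 bp, 3.995) and TEAD3 (308 bp, 3.91). TEAD3 lies in a dense stretch of chromosome 6 with 7 RBPJ summits within 50 kb. YAP1 was the only 1 of these 7 whose nearest summit had a TEAD word, and none had an AP-1 word there. In this list 1 gene, TAOK1, had an L3MBTL3 summit within 50 kb (2.89% of all genes), 44.9 kb away and closest to TP53I13.

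Genes outside the pathway with the same pattern as AXL were sought by a rule: RBPJ summits within 50 kb that hold both a TEAD and an AP-1 word and whose nearest TSS is that of the gene, with no L3MBTL3 summit within 50 kb. AXL and FKBP1A had 2 such summits each, and 45 genes had at least 1. The pair at FKBP1A, 22.9 and 23.0 kb from its TSS (folds 5.75 and 4.37), lay side by side. Their word windows overlapped, so the same words may be counted at both summits. The windows of the AXL pair did not overlap. The next by fold, with 1 such summit each, were OOSP3 (10.1), CD59 (8.50, 399 bp from the TSS), IPO7 (7.57) and CAMK2G (6.60). The likeness is a count of words over summits of 1 library.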

How the data were processed

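RBPJ and L3MBTL3 peak lists from MDA-MB-231 were used, 1 library each. Per the labels' protocols, BWA 0.7.15 placed reads on hg19 after adaptor removal by Trimmomatic, and per the submitters' processing notes peaks came from MACS2; its version, cutoff and control were not stated there. The authors deposited for each peak a fold enrichment (a ratio), a -log10 p, a -log10 q and a score, which is the -log10 q times 10 without decimals. The deposited q reached 0.0487 (RBPJ) and 0.0498 (L3MBTL3) at most. Lists were made per library, and folds were compared within a list only.

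Coordinates are 1-based. Sequence came from GRCh37 (the same assembly as hg19) and TSS from GENCODE 44 lifted to it (78394 distinct positions for protein-coding transcripts). Words were sought on both strands within 100 bp of summits with Python 3.11.15 and pysam 0.24.0. Word and distance searches were tested on simulated data. The genes, lists and words were chosen with earlier results of these data known. Named were all members and their peaks, listed pathway genes with a summit within 1 kb, and the 5 genes most like AXL in the words at their summits. Listed genes named with a summit farther away or none (MYOF, AMOTL2, ASAP1, NUAK2, TAOK1, ANKRD1, LATS2 and IGFBP3) were chosen after their values were seen. No test was made; the main counts are given beside shares over all genes or peaks.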

Additional observations from a re-analysis of the deposited data

How the results depend on the processing

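Over 9 other settings (a stricter q, 10 kb in place of 50 kb, 1 TSS per gene, a promoter of 2.5 kb, sharing within 1 kb, word windows of 50 and 200 bp, other TEAD and AP-1 words), 34 of 38 values stayed within the bounds set for them: the main interval for a share, 1.5 times for a count and the quartiles of the 17 folds for the median. Not all of the 38 could move. With 1 TSS per gene the same 17 peaks were kept, so their word shares and median fold were unchanged. The L3MBTL3 zeros were fixed as well. The interval for a share of 17 peaks is wide, and an AP-1 share of 50.0% still lay inside 13.3 to 53.1. The tally is therefore a weak check of stability. With a -log10 q of at least 5, 8 of the 17 peaks were left (21.9% of all RBPJ peaks passed), 4 genes had a promoter peak and the median fold was 6.27, just above the upper quartile; the peak and gene counts fall by construction. Of those 8 peaks 62.5% held a TEAD and 50.0% an AP-1 word, beside 17.03% and 12.2% of all RBPJ peaks this strict. A window of 50 bp brought the TEAD share to 35.3%, beside 8.17% of all RBPJ peaks. Leaving out AXL, chosen after seeing the data, gave 57.1% for TEAD and 14.3% for AP-1. L3MBTL3 counts stayed at 0 under all alternatives run on them, which holds by construction. The nearest L3MBTL3 summit was 0.515 Mb from a member, beyond the reach of any of these settings. Depth per peak is unknown, so weak peaks near the authors' cutoff (AJUBA, PTPN14 and the downstream CCN1 peak) have no second library to be looked for in.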

Other observations

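Over all genes, the share with an RBPJ promoter peak was similar whatever the number of TEAD words upstream, as a description with no test. Within 1 kb of the gene's 5′ end an RBPJ summit was found for 7.66% of 11542 genes with no TEAD word in the 1 kb upstream, 7.43% of 6138 genes with 1, 7.83% of 1674 with 2 and 6.60% of 394 with 3 or more. CCN2, FJX1 and WWC2 each had 3 such words; FJX1 and WWC2 had a promoter peak and CCN2 had none. A TEAD word in that 1 kb was present in 9 of the 10 genes (all but CRIM1) and in 41.6% of all genes.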
